A study of Mus musculus with 12 samples.

Results

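The integrated stress response regulators described here are 10 genes: the transcription factors Atf4, Ddit3 (CHOP), Atf3, Atf5 and Nupr1, and the feedback and effector genes Trib3, Ppp1r15a, Chac1, Sesn2 and Ddit4. They were found by symbol in a table of raw RNA-Seq counts of 55376 gene symbols, and all 10 of 10 had a row and passed the filter on low counts. The list was chosen from its differences between genotypes in these same samples. The values against WT are therefore given as a description, with fold changes and errors but without a p-value for single regulators. Whether a single regulator passed a threshold, and how many of them did, is part of this description and not independent evidence.

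The samples were oligodendrocytes sorted as O1+ CD45- cells from the brains of C57BL/6 mice at postnatal day 40. O1 recognizes a surface lipid of differentiating oligodendrocytes, and CD45 is a leukocyte marker used to deplete immune cells. There were 4 samples from WT mice, 4 from Cnp-Cre Jab1fl/fl mice (mutants) and 4 from Cnp-Cre Jab1fl/fl p21CIP1-/- mice (double mutants), and each sample held the cells of 2 brains. The labels give no further allele for the WT mice. In both mutant genotypes Cre was driven by Cnp, a gene of the oligodendrocyte lineage whose Cre line is also active in late progenitor cells and in Schwann cells, and the p21CIP1 deletion of the double mutants is not limited to that lineage. A group lacking p21CIP1 alone was not analysed here, and both mutant genotypes were compared with the same 4 WT samples.

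In the integrated stress response, kinases that sense protein folding stress, amino acid shortage, heme deficiency or viral RNA phosphorylate the initiation factor eIF2. Most protein synthesis then slows, while the mRNA of ATF4 is translated better, so much of the control of ATF4 is not visible in its mRNA. ATF4 and its dimer partners bind composite elements in the promoters of stress genes, among them other transcription factors of the pathway and feedback genes that restore translation. In oligodendrocytes, which make large amounts of membrane and myelin protein, this pathway is known from disorders of eIF2B and from myelin disease models.

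Promoters with a motif for these factors are shown for the 5 regulators where one was found. All 5 are among the 6 whose samples did not overlap with WT in either mutant genotype. Ddit3, the other of these 6, had no match to the motifs searched, and neither did Atf4, Atf5, Sesn2 and Ddit4. The regulators were chosen from their differences between genotypes, and a link between motif and difference was not tested. Each stretch runs from 200 bases before to 25 bases after the RefSeq transcription start (GRCm38.p6), 225 bases in all, 5′ to 3′ on the strand of the gene. Capitals mark the core of the C/EBP-ATF response element (TGATGNAA, read on either strand) in the first 4 and the cyclic AMP response element (TGACGTCA) in the last.
Trib3: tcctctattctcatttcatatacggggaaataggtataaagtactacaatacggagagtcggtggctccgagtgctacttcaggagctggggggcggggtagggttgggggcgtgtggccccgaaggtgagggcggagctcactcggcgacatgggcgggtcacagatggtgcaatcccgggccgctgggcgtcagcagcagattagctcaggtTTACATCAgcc
Chac1: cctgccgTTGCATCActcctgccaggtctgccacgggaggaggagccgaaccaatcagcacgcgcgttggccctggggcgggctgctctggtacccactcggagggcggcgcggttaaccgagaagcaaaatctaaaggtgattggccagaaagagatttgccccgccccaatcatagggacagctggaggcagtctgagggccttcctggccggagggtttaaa
Atf3: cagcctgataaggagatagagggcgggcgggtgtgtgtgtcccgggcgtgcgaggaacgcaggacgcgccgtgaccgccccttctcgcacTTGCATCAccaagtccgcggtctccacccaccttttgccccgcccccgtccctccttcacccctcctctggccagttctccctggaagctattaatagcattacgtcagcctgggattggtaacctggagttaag
Nupr1: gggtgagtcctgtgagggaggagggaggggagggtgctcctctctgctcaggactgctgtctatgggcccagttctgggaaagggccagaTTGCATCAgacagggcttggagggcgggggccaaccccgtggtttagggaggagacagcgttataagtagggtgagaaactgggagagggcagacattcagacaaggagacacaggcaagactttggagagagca
Ppp1r15a: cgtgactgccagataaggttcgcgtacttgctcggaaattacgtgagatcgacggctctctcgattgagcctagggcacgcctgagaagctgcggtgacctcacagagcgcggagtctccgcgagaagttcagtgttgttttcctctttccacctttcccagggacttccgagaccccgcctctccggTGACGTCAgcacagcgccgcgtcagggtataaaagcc

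These stretches lie at chr2:152344036-152344260 (reverse strand, Trib3), chr2:119351042-119351266 (forward, Chac1), chr1:191183309-191183533 (reverse, Atf3), chr7:126625446-126625670 (reverse, Nupr1) and chr7:45526244-45526468 (reverse, Ppp1r15a). For Atf3 and Nupr1 the RefSeq start lies inside the span of the gene in GENCODE. The core began 193 bases before the start in Chac1, 110 bases before it in both Atf3 and Nupr1, and at base 15 after it in Trib3. The cyclic AMP response element of Ppp1r15a began 12 bases before the start. Over the whole windows of 250 bases before to 50 after a start, the core was found in 1304 of 32851 mouse windows (3.97%) and the cyclic AMP response element in 588 (1.79%). The 2 motifs did not overlap in these promoters. A match describes the letters of the window and is not a measured binding site. Whether the regulators hold a motif more often than other mouse windows was not tested.

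Total counts per sample ranged from 61485556 to 153495112, with a median of 103095818. Values are given as counts relative to the library total (CPM) with TMM normalization factors, and genes were tested with edgeR's quasi-likelihood test on the 8 samples of each comparison, over 17716 genes with Benjamini-Hochberg adjustment at 0.05. Jab1, listed as Cops5, was at 103 ± 39.8 CPM in WT, 66.9 ± 18.0 CPM in mutants and 58.6 ± 21.5 CPM in double mutants (SD, n = 4 each), with overlapping ranges. Cdkn1a, which encodes p21CIP1, was at 41.6 ± 31.5, 452 ± 123 and 88.5 ± 17.9 CPM in the same order. Counts per gene do not separate deleted exons from the others, so these values do not check the deletions.

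Compared with WT, all 10 regulators were higher on average in mutants, and 6 of them passed the edgeR threshold as higher, where 5.19% of all genes tested did. The 6 were Ddit3, Atf3, Nupr1, Trib3, Ppp1r15a and Chac1. For 8 of the 10, every mutant sample lay above every WT sample, against 9.88% of all genes tested. The median log2 fold change was 2.34 over the regulators and 0.02 over all genes tested. With DESeq2, 8 of the 10 passed (these 6, Atf4 and Atf5), and 9.52% of all genes were called higher. Both tools were checked on 200 genes given a known change, of log2 size 3, among the 17716. DESeq2 recovered 80% of the 200 and edgeR 69%, but 30.7% of the DESeq2 calls were false, against 2.82% with edgeR. A gene called by DESeq2 alone, here and below, is therefore less certain than one called by edgeR. The check covered mutants against WT only. In double mutants against WT, all 10 were again higher on average, 3 (Atf3, Trib3 and Chac1) passed the edgeR threshold against 0.175% of all genes, and the median was 2.23 against 0.00 over all genes. In that comparison 6 of the 10 did not overlap with WT, against 4.52% of all genes, and DESeq2 called 6 as higher (Ddit3, Nupr1 and Ppp1r15a in addition), against 3.74%. Atf3, Trib3 and Chac1 reached the filter of 1 CPM in 4 samples only through the mutant genotypes, in which they are high, and nothing is read from the counts beside the shares of all genes.

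The edgeR count in double mutants depended on single samples. It was 1 (Trib3 alone) when WT replicate 1 or 3 was left out, or replicate 2, 3 or 5 of the double mutants, and 4 without double mutant replicate 1.

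**Figure D1:**
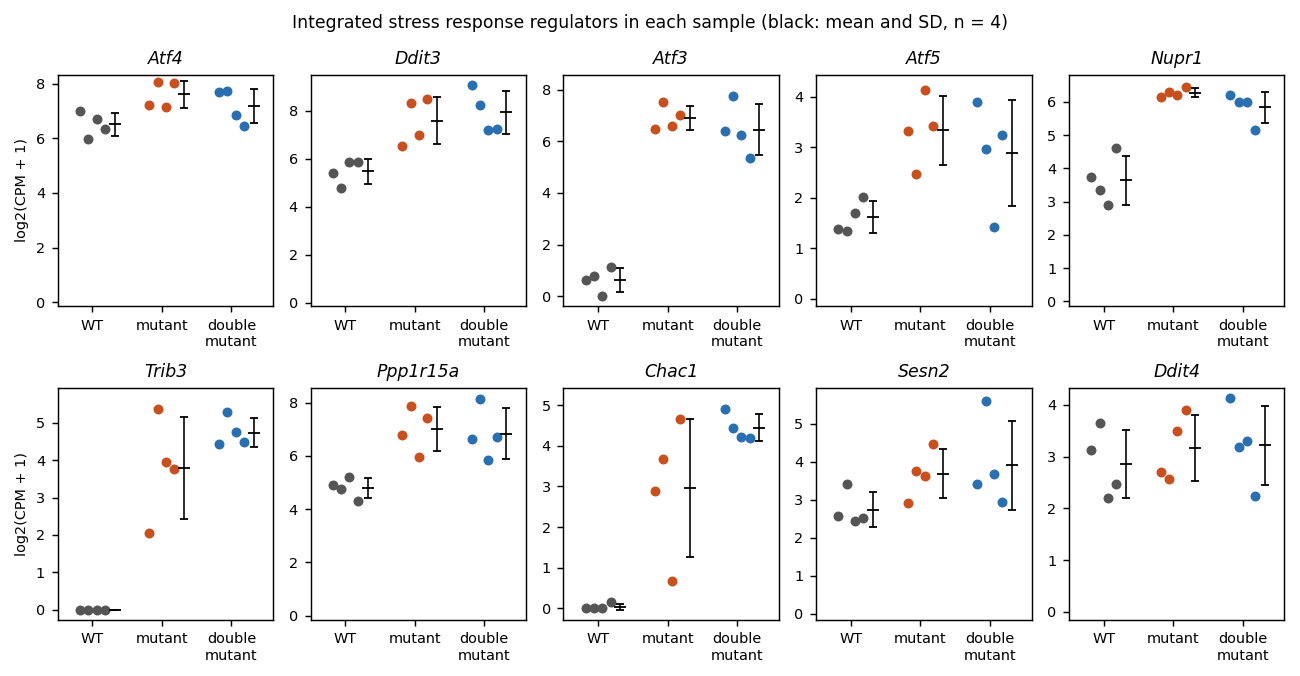
Level of each regulator in each of the 12 samples, as log2(CPM + 1), with samples of one genotype in the order of their replicate numbers and black bars for the mean and SD of 4 samples. Trib3, Chac1 and Atf3 lie at or near 0 in the WT samples and well above it in most mutant and double mutant samples, whereas Ddit4 overlaps in the 3 genotypes.

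Among the transcription factors, Atf4 (chr15:80255184-80257541, forward strand, 3 exons in GENCODE M21) is the central factor of the response. It was at 126, 62.4, 103 and 80.6 CPM in WT replicates 1, 3, 5 and 6. In mutant replicates 1 to 4 it was at 147, 263, 141 and 262 CPM, and in double mutant replicates 1, 2, 3 and 5 at 203, 213, 116 and 85.7 CPM. All mutant samples lay above the highest WT sample, while only the first 2 double mutant samples did. The log2 fold change was 1.13 (SE 0.34) in mutants and 0.72 (SE 0.37) in double mutants, and neither passed the edgeR threshold.

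Ddit3 (chr10:127290774-127296288, forward strand) encodes CHOP, a factor induced downstream of ATF4 that is linked to cell death under lasting stress. In WT it was at 42.1, 26.4, 57.7 and 57.1 CPM. The mutant samples had 91.1, 320, 128 and 359 CPM and the double mutant samples 535, 303, 148 and 149 CPM. No sample of either mutant genotype overlapped with WT, and within each mutant genotype a pair of samples stood well above the other pair. The log2 fold change was 2.30 (SE 0.47) in mutants, past the threshold, and 2.61 (SE 0.48) in double mutants, not past it. Ddit3 overlaps Mars and Gm4189 on the opposite strand and shares at most 68 exon bases with either. Whether reads were counted by strand is not given in the sources used here.

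Atf3 (chr1:191170296-191218039, reverse strand) is a stress-induced factor with little expression in most resting cells. In WT it had 59, 111, 0 and 110 counts, which correspond to 0.535, 0.718, 0 and 1.19 CPM. It was at 88.9, 180, 95.5 and 129 CPM in mutants and at 84.1, 216, 74.4 and 40.3 CPM in double mutants. The lowest of these 8 samples was far above the highest WT sample. The log2 fold change was 7.66 (SE 1.0) in mutants and 7.39 (SE 1.14) in double mutants, both past the threshold, although the second passed in only 2 of 8 fits that left out 1 sample.

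Atf5 (chr7:44812256-44816658, reverse strand), an ATF4 relative whose mRNA is also translated better when eIF2 is phosphorylated, was at 1.60, 1.55, 2.25 and 3.06 CPM in WT. The mutants were at 9.0, 4.53, 16.6 and 9.67 CPM, all above WT. The double mutants were at 13.9, 6.78, 1.68 and 8.49 CPM, and replicate 3 among them lay within the WT range. Neither log2 fold change, 2.24 (SE 0.63) in mutants and 1.85 (SE 0.72) in double mutants, passed the threshold. Atf5 overlaps Nup62 and Il4i1 on the opposite strand and shares at most 82 exon bases with either.

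Nupr1 (chr7:126623249-126630861, reverse strand) encodes a small stress-induced chromatin protein. It was at 12.3, 9.15, 6.38 and 23.4 CPM in WT, at 69.4, 76.8, 73.1 and 86.1 CPM in mutants, and at 73.2, 62.1, 62.4 and 34.2 CPM in double mutants. The mutant samples lay close together, with an SD of 0.13 on the log2(CPM + 1) scale against 0.73 in WT, and no sample of either mutant genotype overlapped with WT. The log2 fold change was 2.58 (SE 0.41) in mutants, past the threshold, and 2.16 (SE 0.44) in double mutants, not past it.

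Among the feedback and effector genes, Trib3 (chr2:152337422-152344032, reverse strand) encodes a pseudokinase that is induced by ATF4 and CHOP and restrains them. No WT sample had a single count of it. Mutant replicates 1 to 4 had 246, 4865, 991 and 934 counts (3.13, 40.5, 14.6 and 12.6 CPM), and double mutant replicates 1, 2, 3 and 5 had 1936, 4819, 2662 and 2042 counts (20.7, 38.2, 25.9 and 21.4 CPM). Every sample of both mutant genotypes thus stood apart from WT, and mutant replicate 1 was the lowest of the 8. Against a floor of 3 counts in each WT sample, the mean was at least 650-fold higher in mutants and at least 975.5-fold higher in double mutants. Trib3 was among the regulators past the threshold in both comparisons.

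Chac1 (chr2:119351229-119354381, forward strand) encodes an enzyme that degrades glutathione. It had 0 counts in WT replicates 1, 3 and 5 and 10 counts in replicate 6 (0.108 CPM). The mutants were at 6.35, 11.8, 0.588 and 24.2 CPM and the double mutants at 29.1, 20.7, 17.8 and 17.4 CPM. Mutants ranged over 41.2-fold from replicate 3 to replicate 4, whereas the double mutant samples differed by at most 1.67-fold, and none of the 8 overlapped with WT. The log2 fold change was 8.65 (SE 1.83) in mutants and 9.66 (SE 1.43) in double mutants, both past the threshold. The mutant call was lost without mutant replicate 4 (log2 fold change 7.82), and the double mutant call held in 2 of 8 fits that left out 1 sample.

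Ppp1r15a (chr7:45522916-45526268, reverse strand) encodes GADD34, the subunit that directs a phosphatase to eIF2 and so ends the response. WT samples were at 29.3, 25.8, 35.5 and 18.9 CPM. Mutants were at 109, 231, 61.7 and 170 CPM and double mutants at 99.7, 284, 56.1 and 105 CPM. Replicate 2 was the highest and replicate 3 the lowest in each mutant genotype, and every one of these samples was above WT. The log2 fold change was 2.39 (SE 0.41) in mutants, past the threshold, and 2.30 (SE 0.48) in double mutants, not past it.

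Sesn2 and Ddit4 encode inhibitors of mTORC1 signaling, Sesn2 as a leucine sensor and Ddit4 as the stress protein REDD1. Sesn2 (chr4:132492032-132510501, reverse strand) was at 4.97, 9.71, 4.48 and 4.75 CPM in WT, at 6.57, 12.5, 11.3 and 21.1 CPM in mutants, and at 9.64, 47.4, 11.8 and 6.63 CPM in double mutants. The genotypes overlapped through WT replicate 3, and double mutant replicate 2 was far above the others. Its log2 fold change was 1.11 (SE 0.53) in mutants and 1.65 (SE 0.66) in double mutants, of which the second was 0.66 without double mutant replicate 2. Ddit4 (chr10:59949669-59951834, reverse strand) was at 3.60 to 11.6 CPM in WT, 4.94 to 13.8 CPM in mutants and 3.74 to 16.5 CPM in double mutants. These ranges were nearly the same, the log2 fold changes were 0.33 (SE 0.60) and 0.42 (SE 0.60), and neither Sesn2 nor Ddit4 passed the threshold in either comparison.

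**Figure D2:**
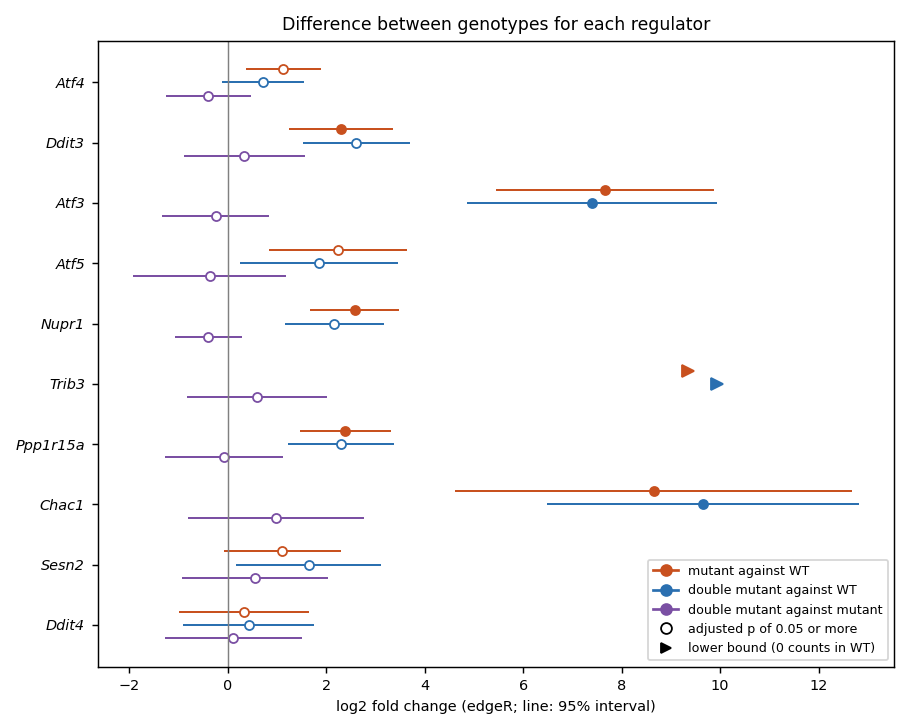
Log2 fold change of each regulator in the 3 comparisons, with lines for the 95% interval, filled points for an edgeR adjusted p below 0.05, and triangles for the lower bound of Trib3 against WT. The double mutant against mutant intervals of all 10 regulators span 0.

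Between double mutants and mutants, which differ in the p21CIP1 deletion, none of the 10 regulators passed the threshold with edgeR or DESeq2 and none had an unadjusted p below 0.05. With edgeR, 0% of the 17716 genes were called higher and 0% lower (885 genes had an unadjusted p below 0.05, and DESeq2 called 20 higher and 67 lower). The groups overlapped for all 10, and 1.23% of all genes lay higher in every double mutant sample. Of the regulators, 5 of 10 were higher in double mutants, with a median log2 fold change of 0.02 (0.02 over all genes tested). The size of difference that these samples leave possible is given by the 95% intervals. For Nupr1, the interval of the log2 fold change was -1.06 to 0.26 around a value of -0.40, and for Atf4 it was -1.24 to 0.45 around -0.40. These were the narrowest intervals of the list. For Ddit3 it was -0.87 to 1.54 around 0.34, for Atf3 -1.32 to 0.82 around -0.25, and for Ppp1r15a -1.25 to 1.11 around -0.07. All of these intervals include 0. The intervals were wider for Chac1, at -0.78 to 2.75 around 0.98, and for Trib3, at -0.82 to 1.98 around 0.59, the pair of genes whose mutant samples varied most. For Atf5 it was -1.91 to 1.17 around -0.37, for Sesn2 -0.92 to 2.01 around 0.55, and for Ddit4 -1.27 to 1.48 around 0.11. A 2-fold change in at least 1 direction thus lay within the interval for each of the 10 regulators.

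The number of regulators above WT was also counted in each sample. Mutant replicates 1 to 4 exceeded the highest WT sample for 8, 9, 9 and 10 of the 10 regulators, where between 28.0% and 32.9% of all genes tested did so in a given mutant sample. Double mutant replicates 1, 2, 3 and 5 did so for 9, 9, 7 and 7, against 22.3% to 31.8% of all genes. Ddit4 was the regulator most often missing, and Atf4 was missing in double mutant replicates 3 and 5. Among mutants, replicate 4 was the highest sample for 5 regulators and replicate 2 for 4, and replicate 1 was the lowest for 5. Among double mutants, replicates 1 and 2 were the highest for 5 each, and replicate 5 was the lowest for 6. The spread of the regulators, as the median SD of log2(CPM + 1) over 4 samples, was 0.44 in WT, 0.66 in mutants and 0.83 in double mutants, against 0.51, 0.64 and 0.66 over all genes.

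To compare levels between genes, CPM were divided by the exon length of each gene (RPKM). The symbol Ddit3 has 2 gene entries, and the merged exons of both were used as its length. Which of them the counts cover is not known here, so the place of Ddit3 in the order carries this limit. In WT, Atf4 (53.9 ± 16.1 RPKM) and Ddit3 (51.5 ± 16.6 RPKM) had the highest levels and did not differ beyond their spread (SD, n = 4). Nupr1 followed at 15.5 ± 9.02 RPKM and Ppp1r15a at 9.33 ± 2.36 RPKM, with overlapping samples. Ddit4, Sesn2 and Atf5 were at 3.91, 1.72 and 1.06 RPKM and each overlapped with its neighbor, whereas Atf3, at 0.284 RPKM, lay below every Atf5 sample and above Chac1 (0.0166 RPKM) and Trib3 on average. In mutants the order was led by Ddit3 at 252 ± 151 RPKM, Atf4 at 118 ± 39.6 RPKM and Nupr1 at 92.1 ± 8.63 RPKM, each overlapping with the next. Atf3 had moved to the fourth place at 57.2 ± 19.4 RPKM, next to Ppp1r15a at 48.7 ± 25.1 RPKM. In double mutants Ddit3, at 319 ± 205 RPKM, was above Atf4 (89.5 ± 36.8 RPKM) in every sample, and the first 7 genes stood in the same order as in mutants. Trib3 and Chac1 reached 8.73 and 6.56 RPKM in mutants and 13.1 and 13.0 RPKM in double mutants, levels at which they overlapped with each other.

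Genes described as targets of ATF4 or CHOP were taken as a list of 43 genes for amino acid synthesis, amino acid transport, tRNA charging and other roles, none of them among the 10 regulators, of which 40 passed the filter on low counts. This list, like the others below, was chosen with earlier results of these data known. Its calls and p-values are thus a description and not independent evidence. In mutants against WT, 6 of the 40 rose and 3 fell, where 5.19% of all genes rose and 2.46% fell, and the median log2 fold change of the 40 was 0.14 against 0.02 over all genes. In double mutants 3 of the 40 rose and 0 fell, where 0.175% and 0.0169% of all genes did, with a median of 0.43 against 0.00. DESeq2 called 8 as higher and 1 as lower there. Between double mutants and mutants 0 of the 40 passed with edgeR, with 2 at an unadjusted p below 0.05 and 0 by DESeq2. The mutant count of 9 was 5 without WT replicate 5 and 4 without mutant replicate 3. The double mutant count of 3 was 0 without WT replicate 1, 3, 5 or 6 or replicate 2 of the double mutants, and 1 when their replicate 5 was left out.

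Among the 12 genes of amino acid synthesis, Asns, Pycr1 and Pck2 rose in mutants while Psat1 and Phgdh fell. Asns, asparagine synthetase, was at 6.54 CPM in WT, 41.1 CPM in mutants and 54.5 CPM in double mutants on average. Its log2 fold change was 2.66 (SE 0.48, adjusted p = 0.00861, edgeR) in mutants and 3.05 (SE 0.36, adjusted p = 0.0275, edgeR) in double mutants. Pycr1, the last enzyme of proline synthesis, rose by 3.04 (SE 0.75, adjusted p = 0.0323, edgeR) and 3.49 (SE 0.45, adjusted p = 0.0365, edgeR) on the log2 scale. Pck2, the mitochondrial PEP carboxykinase, rose by 2.06 in mutants (SE 0.37, adjusted p = 0.00886, edgeR), and its difference in double mutants was 1.70 (SE 0.37, adjusted p = 0.0998, edgeR), which DESeq2 called. Psat1 and Phgdh, which act in serine synthesis, went the other way. Psat1 fell by 2.0 (SE 0.42, adjusted p = 0.0173, edgeR) and Phgdh fell by 1.57 (SE 0.39, adjusted p = 0.0334, edgeR) on the log2 scale in mutants. In double mutants they were at -1.24 and -0.92 and lay below WT in every sample, but did not pass with edgeR, while DESeq2 called Psat1 as lower.

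Of the 8 amino acid transporters, Slc7a1, a carrier of cationic amino acids, rose by 2.75 (SE 0.57, adjusted p = 0.0155, edgeR) in mutants, and Slc6a9, a glycine transporter, fell by 3.28 (SE 0.82, adjusted p = 0.0338, edgeR). In double mutants neither passed with edgeR, while DESeq2 called Slc7a1 (log2 fold change 2.40 with edgeR), which was above WT in every double mutant sample. Of the 13 genes of tRNA charging, Cars, cysteinyl-tRNA synthetase, was the one that rose in mutants, by 1.08 (SE 0.28, adjusted p = 0.0365, edgeR), and 0 passed in double mutants with edgeR (0 at an unadjusted p below 0.05 and 0 by DESeq2). Eif4ebp1, an inhibitor of cap-dependent translation, rose by 3.34 (SE 0.55, adjusted p = 0.00653, edgeR) in mutants and by 3.32 (SE 0.46, adjusted p = 0.0404, edgeR) in double mutants. With edgeR it was the 1 of the 7 other targets tested that passed in either comparison, whereas DESeq2 called 3 higher and 1 lower in mutants and 3 higher in double mutants, with Gdf15 and Gadd45a higher in both and Vldlr lower in mutants. Gdf15 averaged 0.292 CPM in WT and so reached the filter on low counts only through the mutant genotypes. It had 0 counts in mutant replicate 1, so mutants and WT overlapped for it. The genes of the list that passed in mutants thus lay on both sides of 0, and the median log2 fold change of tRNA charging was 0.14 in mutants and 0.42 in double mutants.

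**Figure D3:**
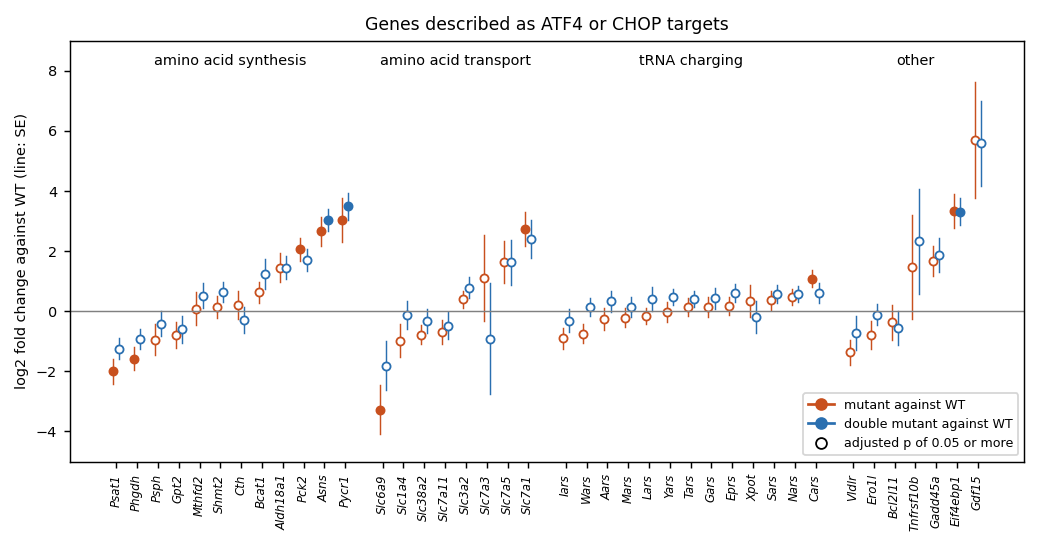
Log2 fold change against WT of the 40 tested genes described as ATF4 or CHOP targets, in mutants and in double mutants, with lines for 1 SE and filled points for an edgeR adjusted p below 0.05. Asns, Pycr1 and Eif4ebp1 are filled in both comparisons, whereas Psat1, Phgdh and Slc6a9 lie below 0.

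Upstream of ATF4, 0 of the 4 eIF2 kinases (Eif2ak1 to Eif2ak4), 0 of the 8 genes of eIF2 and its exchange factor eIF2B, and 0 of 5 genes of the constitutive phosphatase and the mitochondrial relay passed in any of the 3 comparisons with edgeR. Of all genes, edgeR called 5.19% higher in mutants and 0.175% in double mutants, so these counts of 0 do not show unchanged genes. In mutants against WT, 2, 2 and 1 of these had an unadjusted p below 0.05, and DESeq2 called 1, 1 and 0, whereas in double mutants against WT 0, 1 and 0 had an unadjusted p below 0.05 and DESeq2 called 0. DESeq2 called Eif2ak2 (log2 fold change 1.70, SE 0.48) and Eif2s2 (1.22, SE 0.40) as higher in mutants. Eif2s2 lay above WT in every sample of both mutant genotypes. Eif2ak1, Eif2b3 and Ppp1r15b, the others at an unadjusted p below 0.05 in mutants, were lower. Of 8 bZIP genes whose products can pair with ATF4, CHOP or ATF3, 2 rose in mutants with edgeR (4 at an unadjusted p below 0.05 and 4 by DESeq2). These 2 were Cebpb, by 2.54 (SE 0.48, adjusted p = 0.0110, edgeR), and Batf3, by 4.38 (SE 1.09, adjusted p = 0.0337, edgeR). In double mutants 0 passed with edgeR (1 at an unadjusted p below 0.05 and 1 by DESeq2). Cebpg lay above WT in every sample of both mutant genotypes, with log2 fold changes of 0.92 (SE 0.27) and 1.05 (SE 0.32). DESeq2 called it in both comparisons with WT and edgeR in neither. Batf3 averaged 0.29 CPM in WT and 5.98 CPM in mutants. It reached the filter on low counts only through the mutant genotypes, so its call is a description. Cebpb and Batf3 are also expressed by immune cells. Genes of the other arms of the unfolded protein response, which run through IRE1 and ATF6, did not pass in any comparison with edgeR (0 of 16, with 2 at an unadjusted p below 0.05 and 0 by DESeq2 in mutants against WT, and 1 and 1 in double mutants against WT). Their sums were 1857 to 2196 CPM in WT, 2170 to 3220 CPM in mutants and 2449 to 4174 CPM in double mutants. The double mutant sums thus all lay above WT. Against WT, 12 of 16 were above 0 in each mutant genotype, with a median log2 fold change of 0.25 in mutants and 0.47 in double mutants. Hspa5, the chaperone BiP, was at 518, 687 and 837 CPM on average in WT, mutants and double mutants, with a log2 fold change of 0.41 (SE 0.30) and 0.68 (SE 0.32).

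Other measures moved with the genotypes too. Immediate early genes, which are induced within minutes by many stimuli including the dissociation of tissue, summed to 404 to 657 CPM in WT, 1016 to 1425 CPM in mutants and 795 to 1218 CPM in double mutants. Of 16 tested, 7 passed as higher in mutants and 1 (Klf4) in double mutants with edgeR, while DESeq2 called 10 and 6. The median log2 fold change was nearly the same, 1.403 in mutants and 1.401 in double mutants, so the unequal edgeR counts do not show a difference between them. The smallest adjusted p in mutants belonged to Klf4, which rose by 3.58 (SE 0.55, adjusted p = 0.00444, edgeR), Ier2, by 2.12 (SE 0.39, adjusted p = 0.00951, edgeR), Junb, by 2.31 (SE 0.45, adjusted p = 0.0117, edgeR), and Zfp36, by 1.48 (SE 0.33, adjusted p = 0.0233, edgeR). Fos, by contrast, was at 69.2, 72.1 and 82.6 CPM on average in the 3 genotypes. Atf3 itself is also known as an early response gene. The part of these genes in the values of the regulators was not tested.

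The cell type markers of the sort also differed. Markers of mature oligodendrocytes summed to 41990 to 101300 CPM in WT, 9203 to 35530 CPM in mutants and 16940 to 53710 CPM in double mutants, and 7 of 14 fell in mutants. In double mutants 0 of 14 passed with edgeR (8 at an unadjusted p below 0.05 and 6 lower by DESeq2). The median log2 fold change was -2.14 in mutants and -1.22 in double mutants. None of these markers was at 0 in any sample. In bulk samples, fewer cells of a type and less RNA per cell cannot be told apart. Microglia markers summed to 149 to 359 CPM in WT, 1400 to 3583 CPM in mutants and 545 to 23780 CPM in double mutants, and 19 of 20 rose in mutants while 0 passed in double mutants with edgeR (20 at an unadjusted p below 0.05 and 13 by DESeq2). Their median log2 fold change was 3.90 in mutants and 5.15 in double mutants, so the unequal edgeR counts do not show a lower level in double mutants. Of these markers 1, Ptprc, which encodes CD45, was at 0 in WT replicate 3, and all were above 0 in the other samples. Ptprc averaged 0.454 CPM in WT and reached the filter on low counts only through the mutant genotypes. Endothelial markers summed to 450 to 1015, 914 to 5397 and 756 to 5308 CPM, with 5 of 10 higher in mutants, and mural markers to 259 to 477, 991 to 1723 and 284 to 1707 CPM, with 5 of 8 higher. In double mutants 0 of either list passed with edgeR (8 and 3 at an unadjusted p below 0.05, and 6 and 3 by DESeq2). Their median log2 fold changes were 2.27 and 2.20 in mutants and 1.91 and 1.84 in double mutants. Of progenitor cell markers, 1 of 8 rose in mutants (Cspg4, which is also counted among the mural markers), and Pcdh15 lay below every WT sample, at 0.435 CPM against 10.1 CPM on average, and was called lower by DESeq2 but not by edgeR, and of astrocyte and neuron markers 0 of 10 each passed with edgeR (3 each at an unadjusted p below 0.05, and 0 and 1 by DESeq2).

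The order of samples by these markers can be set beside their order by regulators. Double mutant replicate 1 had the lowest microglia sum (545 CPM) and an endothelial sum (756 CPM) within the WT range, and it was the highest double mutant sample for 5 regulators, among them Ddit3 and Chac1, and the lowest for Trib3. It also had the lowest sum of immediate early genes of the double mutants (795 CPM). Mutant replicate 2 had the lowest microglia sum of the mutants (1400 CPM) and an endothelial sum (914 CPM) within the WT range, and it had the highest Trib3, Atf3, Ppp1r15a and Atf4 of the mutants and the lowest Atf5 and Ddit4, while its neuron marker sum (698 CPM) was the highest of the mutants. Mutant replicate 4 had the highest microglia (3583 CPM) and mural (1723 CPM) sums of the mutants and the second highest endothelial sum (4091 CPM), and it was the highest mutant sample for 5 regulators and the lowest for 0. Double mutant replicate 3, with by far the highest microglia sum (23780 CPM), was not the highest double mutant sample for any regulator. Mutant replicate 1 had the highest endothelial sum of the mutants (5397 CPM) and a microglia sum of 3463 CPM. It was the lowest mutant sample for 5 regulators. Double mutant replicate 5 had the highest endothelial (5308 CPM) and mural (1707 CPM) sums of the double mutants. It was the lowest double mutant sample for 6 regulators. The part of other cell types in the differences was not tested.

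**Figure D4:**
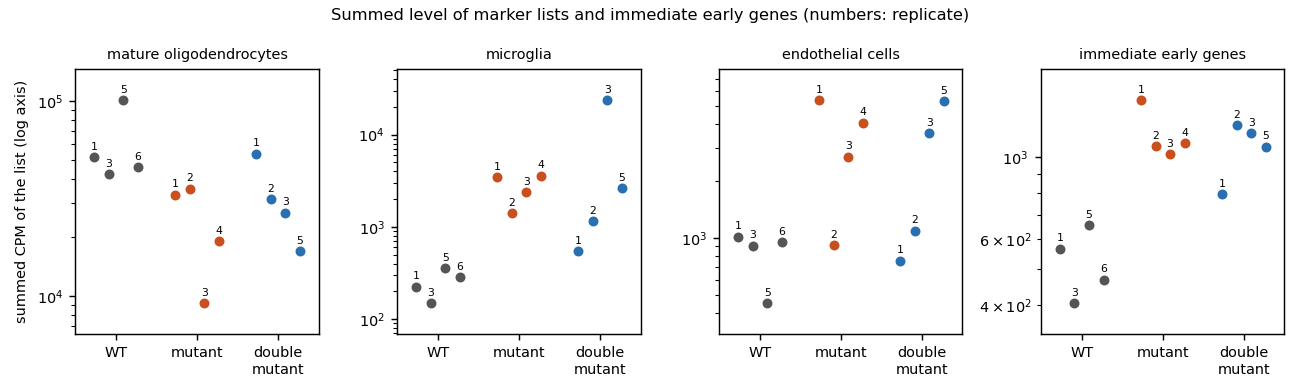
Summed CPM (log axis) of marker genes of mature oligodendrocytes, microglia and endothelial cells and of immediate early genes in each sample, numbered by replicate. Microglia sums reach from 149 CPM in WT to 23780 CPM in double mutant replicate 3, and mutant replicate 2 and double mutant replicate 1 lie within the WT range for endothelial cells.

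The genes whose pattern was most like that of a regulator were listed by Pearson's r of log2(CPM + 1) over the 12 samples, as a description in which differences between genotypes and sample depth are shared by all points. For Trib3 these were Gadd45b (r = 0.94), a growth arrest and stress gene, Eif4ebp1 (r = 0.93) and the regulator Atf3 (r = 0.93). For Atf4 they were Nfil3 (r = 0.97), a bZIP transcription factor, Dcaf17 (r = 0.91) and the noncoding RNA Gas5 (r = 0.91). None of the 10 regulators was thus among the 3 genes most like Atf4.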

How the data were processed

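RNA-Seq was measured in 12 samples of sorted oligodendrocytes, 4 per genotype, grouped by their labels. The authors used Trimmomatic 0.32 for trimming, STAR 2.5.3a for alignment to GRCm38 and featureCounts for counting per gene, and the deposited values are raw counts without normalization or filter. Whether strand or reads with several matches were used is not given in the sources used here. Replicates were no repeats of one library, since their counts differed beyond counting noise (lowest chi-square per degree of freedom 160). The p-values measure the spread between samples of 2 pooled brains each.

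From the counts, CPM with TMM factors from all 12 samples were computed here, and genes reaching 1 CPM in 4 or more samples were tested with edgeR 4.0.16 (R 4.3.3) on the 8 samples compared. SEs are the log2 fold change divided by the root of the F statistic. In the smallest sample 1 CPM is 68.1 counts, so counting error is small beside the spread between samples, and the floor of 3 counts covers counting error only. Alternatives were DESeq2 1.42.0, other scalings and filters, all 12 samples in 1 fit, a replicate block, voom of limma 3.58.1 and each sample left out. RPKM and positions used GENCODE M21 (54402 symbols, 98.2%, matched 1 gene), while the authors counted on the M22 basic release, so exon lengths may differ from those counted. Promoters were taken from RefSeq windows, which held all 10 regulators.

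The regulators and all gene lists were chosen with earlier results of these data known. The text names all 10 regulators, up to 4 called genes with the smallest adjusted p per list and comparison, and the 3 genes most like Trib3 and Atf4. Phgdh, Hspa5, Fos, Gdf15, Gadd45a, Vldlr, Cspg4, Pcdh15 and Ptprc, and the regulators and target genes named for samples left out, were added after their values were seen. So were Cebpg, Eif2ak1, Eif2ak2, Eif2s2, Eif2b3 and Ppp1r15b.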

Additional observations from a re-analysis of the deposited data

Results flagged for a closer look

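In groups of 4 samples, a sample was taken to stand apart when its gap to the nearest other sample was large against the whole range of the group (Dixon's test at the 95% level), which chance gives in about 1 of 20 groups. Of 90 groups examined, 13 met this. Among the regulators, Chac1 in WT replicate 6 was at 0.108 CPM, where the other WT samples had 0. Sesn2 stood apart in WT replicate 3 at 9.71 CPM (others 4.48 to 4.97 CPM) and in double mutant replicate 2 at 47.4 CPM (others 6.63 to 11.8 CPM). Cdkn1a in mutant replicate 4 was at 637 CPM, against 379 to 397 CPM in the other mutant samples.

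The other 9 were summed levels of gene lists. In WT, replicate 3 stood apart for amino acid transport (2036 CPM), progenitor cell markers (3761 CPM) and mural markers (477 CPM), and replicate 5 for bZIP partners (493 CPM) and mature oligodendrocyte markers (101300 CPM). In mutants, replicate 2 stood apart for neuron markers (698 CPM). In double mutants, replicate 2 was low for the phosphatase and mitochondrial relay genes (298 CPM), and replicate 3 was high for the other arms of the unfolded protein response (4174 CPM) and for microglia markers (23780 CPM).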

How the results depend on the processing

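The direction of every regulator against WT was kept in all alternatives except for Ddit4 in mutants, at -0.33 with the replicate block and -0.01 to 0.70 when 1 sample was left out (-0.01 without mutant replicate 4). Numbers of calls were less stable than directions. Of the target genes in mutants against WT, 9 passed, and 14 did with DESeq2, 5 with no filter and 0 with the replicate block, with 4 to 8 when 1 sample was left out. Of the regulators in double mutants against WT, 3 passed, and 6 did with DESeq2, with a mean of at least 10 CPM and with all 12 samples, 0 with the replicate block, and 1 to 4 when 1 sample was left out. Of the target genes there, 3 passed, and 9 did with DESeq2, 0 with the replicate block and 0 to 3 when 1 sample was left out. Regulators called in mutants numbered 5 to 7 when 1 sample was left out and 4 with the replicate block, and in double mutants against mutants 0 regulators and 0 targets passed in any alternative. Replicate numbers did not pair the samples (correlation of same-numbered deviations -0.19 to 0.08), and with the replicate block 660 of all genes passed in mutants and 1 in double mutants against WT, in place of 1354 and 34. The cause of these differences was not tested. Library totals alone moved the median log2 fold change of all genes in mutants to 0.12.

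Between double mutants and mutants, where all intervals span 0, the sign turned for Ppp1r15a with the replicate block (0.009) and with limma-voom (0.002). When 1 sample was left out, values there ranged over both signs for Ddit3 (-0.17 to 0.68), Atf3 (-0.90 to 0.019), Atf5 (-0.80 to 0.003), Ppp1r15a (-0.72 to 0.26), Sesn2 (-0.47 to 0.91) and Ddit4 (-0.32 to 0.47).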
